A study of Arabidopsis thaliana with 4 samples.

Results

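The set described here holds 70 Arabidopsis thaliana genes that have no symbol of their own and that lay far below wild type in inflorescences of the mutant pistillata. Every one of them is known in the gene table used here only by its locus, a code such as AT3G01250 that gives chromosome and order. They were chosen by the array values themselves: a gene entered when a probe listed it alone and its log2 ratio of pistillata over wild type was -2 or lower on each of 4 arrays, which is at least 4-fold lower. Of 5386 genes with such a probe and a value on every array, 93 reached that threshold (1.73%). The 93 comprised 16 genes with a symbol and 77 without one, and 7 of the 77 belonged to 9 loci that the choice set aside, which left 70. Because the ratios chose the genes, their low values are given as a description, with no test against wild type.

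PISTILLATA encodes a MADS-box transcription factor. Together with its partner APETALA3 it specifies petals and stamens, and flowers that lack it carry sepals and carpels in their place. A stamen contains the anther, in which the tapetum feeds the developing pollen and pollen grains mature, and many genes of these tissues are transcribed nowhere else in the flower. A ratio of mutant to wild-type inflorescences therefore compares tissues of different makeup, and in such bulk samples fewer cells of a type and less RNA per cell cannot be told apart.

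Total RNA of pistillata inflorescences and of wild-type inflorescences was hybridised together on 4 two-channel arrays with Operon probes, called arrays 1 to 4 by the set number in the labels. The labels give neither allele nor ecotype, and neither plant age nor dyes. The labels do not state that the arrays hold separately grown plants, so the spread between arrays may be technical, and the p-values below measure only that spread. Precision is limited by having 4 arrays, and the ratios come without signal strengths.

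The direction of the ratios had to be inferred. The labels place pistillata RNA in channel 1 on arrays 1 and 3 and in channel 2 on arrays 2 and 4, but the anther genes used to set the sign paired the arrays differently. As deposited, the anther genes SWEET8, SHT, ATA20 and TUA1 had medians of 2.91, -2.77, -3.15 and 3.72 on arrays 1 to 4. TUA1 was the weakest of these, at -0.86, -0.30, -0.32 and -0.40 after turning, and was not called by limma. Over the 5316 tested genes outside the set, the deposited values of arrays 1 and 4 had a Pearson's r of 0.42 and those of arrays 2 and 3 one of 0.60. Between these pairs of arrays Spearman's rho ran from -0.39 to -0.23, but Pearson's r had no common sign, at -0.16 and -0.13 for array 1 with arrays 2 and 3 and 0.12 and 0.18 for array 4 with the same arrays. Arrays 1 and 3, and arrays 2 and 4, which the labels put in the same orientation, thus had rho below 0. Arrays 1 and 4 were multiplied by -1, which puts the anther genes on the wild-type side, and this direction is called likely rather than settled. With the signs of all arrays exchanged the 70 loci would be higher in pistillata by the same amounts. With arrays 2 and 4 turned instead, as in the labels' channel order, the threshold found 0 loci and the median of the 70 means was -0.15. That follows from choosing the loci with arrays 1 and 4 turned and says nothing about which order is right.

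In the likely direction the 70 mean log2 ratios ran from -5.96 to -2.20, which is 62.4-fold to 4.60-fold lower in pistillata. Their median was -3.57, or 11.8-fold lower, where the median of all 5386 genes was 0.16. By the mean, 46 of the 70 loci were at least 10-fold lower. On every single array, 30 of the 70 lay at -3 or lower, 5 at -4 or lower and 1 at -5 or lower. Reduction on this scale had almost no mirror image, because 1 gene in all, itself without a symbol, was at 2 or higher on each array. Of 342 empty spots with 4 values, 0 met the threshold in either direction.

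**Figure D1:**
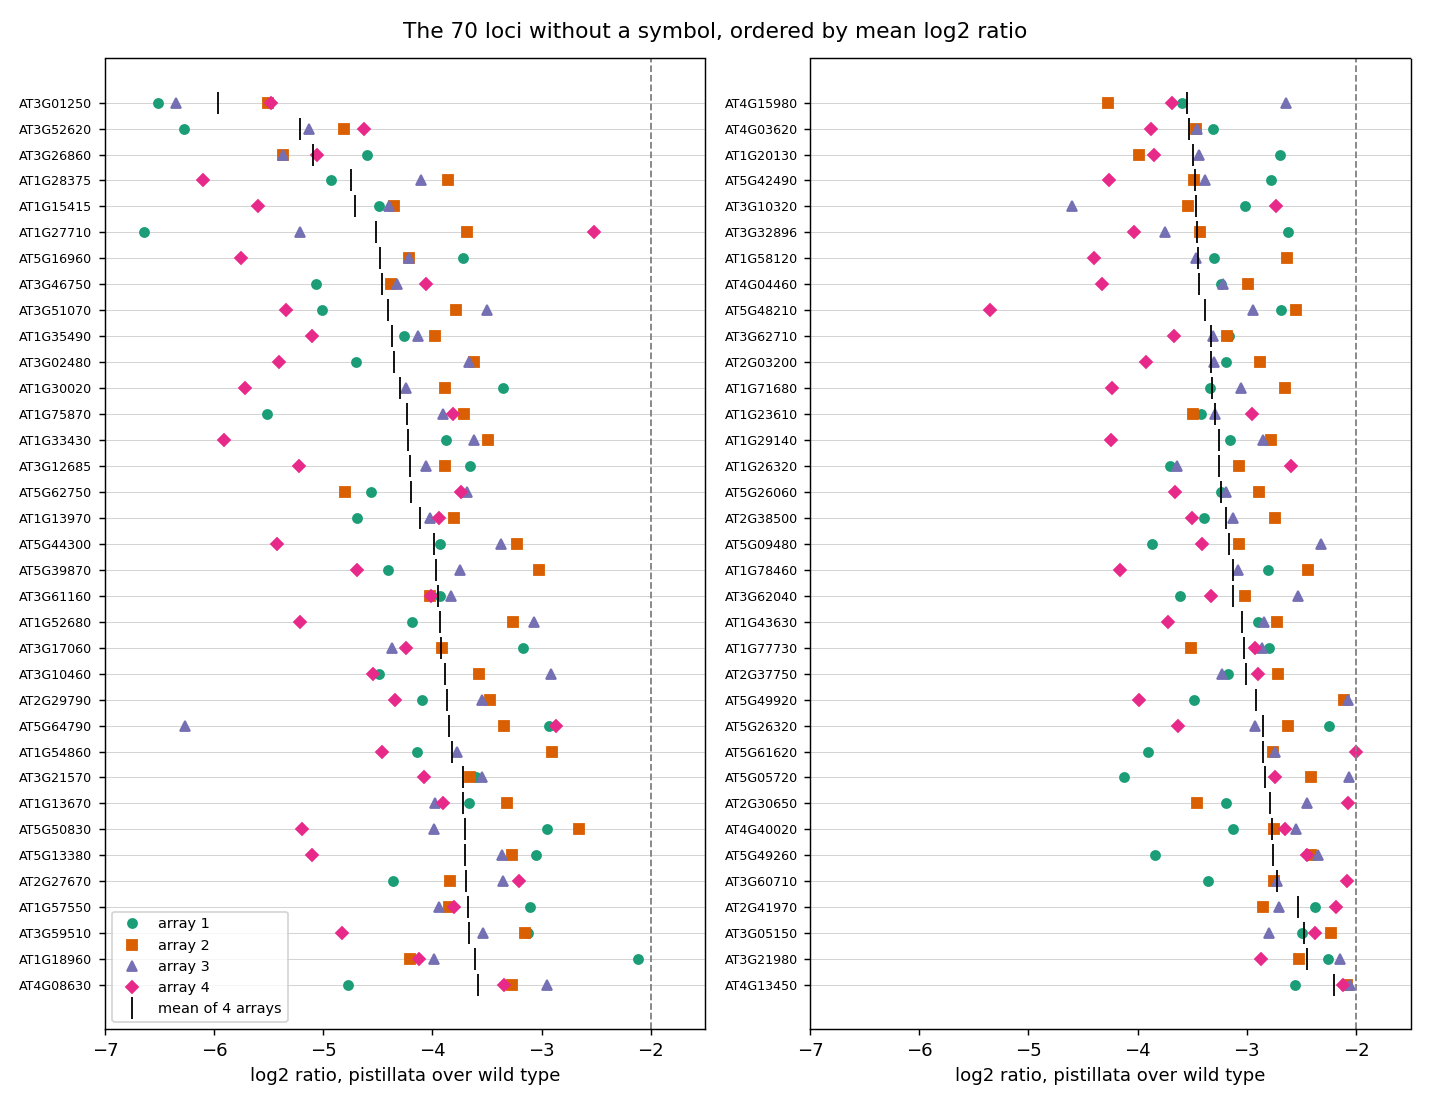
Log2 ratios of pistillata over wild type for the 70 loci, each on a row of its own and ordered by mean, with 1 point per array and a black bar at the mean of the 4 arrays. The dashed line marks the threshold of -2. Means run from -5.96 at the top left to -2.20 at the bottom right, and array 4 is the lowest point in 36 of the 70 rows.

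The threshold was reached by a smaller share of genes without a symbol than of genes with one. Of 4829 tested genes without a symbol, 77 reached the threshold (1.59%), and of 530 tested genes with a symbol, 16 did (3.02%). The 16 with a symbol had means between -4.88 and -2.72 with a median of -3.56, so the range of the 70 loci enclosed theirs. Their median SD over the 4 arrays was 0.46, where that of the 70 loci was 0.61 and that of all genes 0.29. Of 13030 probes to which the annotation gives no gene, 292 (2.24%) reached the same threshold.

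The gene table describes no proteins. The protein families below are general knowledge of these loci, given for 42 of the 70 as background. They fell into 37 families, of which 5 held 2 loci and the others 1, so no family given here held more than 2 of the 70. For the remaining 28 loci no family is given, which does not mean that they belong to none, and some may belong to the families named here.

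The lowest locus was AT3G01250, for which no family is given. Its log2 ratios were -6.52, -5.51, -6.35 and -5.48 on arrays 1 to 4. The mean was -5.96 ± 0.55 (SD, n = 4), and it was the only locus of the 70 at -5 or lower on every array. AT3G52620 followed at -6.27, -4.81, -5.13 and -4.63, a mean of -5.21 ± 0.74 (SD, n = 4). AT3G26860 stood at -4.60, -5.37, -5.36 and -5.06, with the smallest spread of these 3 lowest loci and a mean of -5.10 ± 0.36 (SD, n = 4). All 3 lie on chromosome 3, and none of them had a value above -4.60 on any array. AT1G28375, at -4.93, -3.86, -4.11 and -6.10, and AT1G15415, at -4.49, -4.35, -4.40 and -5.60, were both lowest on array 4, and for neither is a family given. AT3G46750 had log2 ratios of -5.06, -4.38, -4.33 and -4.06 and was lowest on array 1. These 6 loci without a given family were among the 8 lowest of the set.

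The other loci of the 10 lowest are among those with a given family. AT1G27710, of the glycine-rich protein family, was the least even, at -6.64, -3.68, -5.21 and -2.52. Its value on array 1 lies at the limit of the deposited table, the log2 of 100, and is a bound, so its mean of -4.51 is at least 22.9-fold lower, with an SD of 1.80 (n = 4), the largest of the set. AT5G16960, a zinc-binding dehydrogenase of the medium-chain type that reduces small carbonyl compounds, was at -3.72, -4.21, -4.21 and -5.76. AT3G51070, a methyltransferase that uses S-adenosylmethionine as its methyl donor, was at -5.01, -3.78, -3.50 and -5.34. AT1G35490, of the bZIP transcription factor family, was the lowest regulator at -4.26, -3.97, -4.13 and -5.11. Among these 4 loci the arrays did not agree on the order of the loci: AT1G27710 was the lowest of them on array 1 and the highest on array 4.

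Enzymes and structural proteins of the cell wall formed a group of 7, with a median of their means of -3.55. Pollen tubes have a pectin-rich wall, and of these families the pectin methylesterases act on pectin. Whether any of the 7 loci acts in pollen was not tested. AT1G33430, a galactosyltransferase family protein of the kind that adds galactose to arabinogalactan glycans, was the lowest at -3.87, -3.49, -3.62 and -5.91, a mean of -4.22 ± 1.14 (SD, n = 4). The pectin methylesterases AT3G17060 and AT4G15980, which remove methyl groups from pectin, had means of -3.92 ± 0.54 and -3.55 ± 0.68 (SD, n = 4 each). AT5G64790, of glycoside hydrolase family 17, the family of beta-1,3-glucanases, was at -2.94, -3.34, -6.26 and -2.86, and only array 3 stood apart. Leaving array 3 aside, its values lay between -3.34 and -2.86. AT3G10320, of glycosyltransferase family 61, and AT5G09480, of the hydroxyproline-rich glycoproteins, had means of -3.47 and -3.17. All 7 means were between -4.22 and -3.17.

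AT3G62710, of glycoside hydrolase family 3, which releases sugars from the ends of wall glycans, was the only locus of the set with a pair of own probes. One probe read -2.75, -2.85, -3.30 and -4.54, and the other -3.57, -3.52, -3.32 and -2.79. Their means, -3.36 and -3.30, were close, although the first probe was lowest and the second highest on array 4. The other 69 loci rest on 1 probe each.

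Secreted and surface proteins, a group of 6, had means between -4.51 and -2.45. AT1G27710, described above, was the lowest of them. AT3G10460 and AT5G26060 belong to the family named after the poppy S1 protein, small secreted proteins known in poppy for self-incompatibility between pollen and stigma, and had means of -3.88 ± 0.78 and -3.24 ± 0.32 (SD, n = 4 each). AT1G54860, a predicted membrane glycoprotein held by a GPI anchor, was at -3.82 ± 0.67 (SD, n = 4). AT1G29140, of the family of the olive pollen allergen Ole e 1, was at -3.15, -2.78, -2.85 and -4.24, 9.56-fold lower by the mean. AT3G21980, of the cysteine-rich repeat secretory proteins, was at -2.45 and had no value below -2.87. AT5G26060 and AT3G21980 had the smallest spread of the 6, each with an SD of 0.32, and AT1G27710 the largest.

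Lipases and proteases were represented by 3 loci with nearly the same mean. AT1G20130, of the GDSL lipase family that includes lipases of the pollen coat, was at -2.70, -3.98, -3.44 and -3.85, a mean of -3.49 ± 0.58 (SD, n = 4). The aspartyl proteases AT4G04460 and AT2G03200 had means of -3.44 ± 0.60 and -3.32 ± 0.44 (SD, n = 4 each). These 3 means differed by less than the spread of any one of the loci over its arrays.

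The 7 other enzymes began with AT5G16960 and AT3G51070, described above. AT5G13380, of the GH3 family, which joins plant hormones and related acids to amino acids, was at -3.05, -3.27, -3.36 and -5.11, a mean of -3.70 ± 0.95 (SD, n = 4). AT1G26320, the other zinc-binding dehydrogenase, had a mean of -3.25 ± 0.52 (SD, n = 4), and unlike AT5G16960 it was highest on array 4, at -2.59. AT2G38500, of the oxygenases that use 2-oxoglutarate and iron, AT3G62040, of the haloacid dehalogenase-like hydrolases, and AT2G30650, of the crotonase-like hydrolases, had means of -3.19, -3.12 and -2.79. The pair of dehydrogenases thus had opposite extremes on array 4.

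Regulators and signalling proteins, a group of 10, had the median closest to 0, at -2.97. AT3G61160, of the GSK3-like kinases, which phosphorylate proteins in hormone and stress signalling, was the most even locus of the whole set, at -3.93, -4.02, -3.83 and -4.01 (mean -3.95 ± 0.09, SD, n = 4). AT3G59510, a leucine-rich repeat protein, was at -3.66 ± 0.80 (SD, n = 4). The MYB-like proteins AT1G18960 and AT5G61620 had means of -3.61 and -2.85 and opposite exceptions. AT1G18960 was at -2.11 on array 1 and between -4.20 and -3.99 elsewhere, whereas AT5G61620 was lowest on array 1, at -3.90. AT1G77730, with a pleckstrin homology domain, AT5G49920, with a PB1 domain, and AT5G26320, a TRAF-like protein, had means of -3.02, -2.91 and -2.85. AT3G60710, an F-box protein of the kind that selects targets for ubiquitination, and AT2G41970, of the receptor-like cytoplasmic kinases, were at -2.73 and -2.53. With AT1G35490, the means of the group ran from -4.37 to -2.53.

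Of 3 transport and membrane proteins, AT1G57550, of the small low temperature and salt responsive membrane proteins, was the lowest at -3.10, -3.85, -3.94 and -3.81. AT1G71680, of the amino acid transporters, had a mean of -3.32 ± 0.67, and AT3G05150, of the sugar transporters, one of -2.47 ± 0.24 (SD, n = 4 each). The stress and dormancy families had means from -4.35 to -2.20. AT3G02480, a late embryogenesis abundant protein of the type that accumulates in drying seeds and pollen, was at -4.70, -3.62, -3.67 and -5.41. AT5G44300, of the dormancy and auxin associated family, had a mean of -3.99 ± 1.004 (SD, n = 4). AT4G13450, like the universal stress proteins, had the mean closest to 0 of all 70 loci, at -2.20 ± 0.24 (SD, n = 4).

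The last 3 loci with a given family were the kinesin motor AT5G42490, the haem-binding SOUL protein AT1G78460 and AT4G40020, related to myosin heavy chains. AT5G42490 had log2 ratios of -2.78, -3.48, -3.39 and -4.26 and was 11.1-fold lower by the mean. The means of AT1G78460 and AT4G40020 were -3.12 and -2.77. The chosen loci thus included proteins as unlike as a motor, a transporter and a wall enzyme. That their values were low on every array follows from the choice and is not a result about these families.

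**Figure D2:**
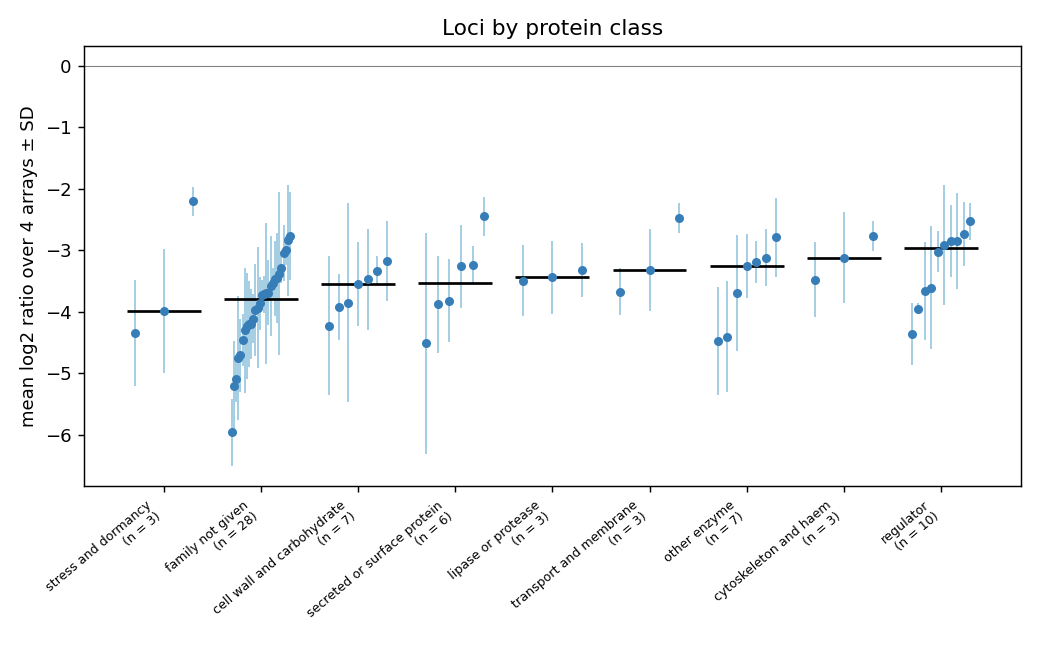
Mean log2 ratio over 4 arrays for each of the 70 loci, as points with bars of 1 SD (n = 4 arrays), grouped by protein class and ordered by the median of the class, which is the black line. Class medians lie between -3.99 and -2.97, and the ranges of the classes overlap. The 28 loci without a given family include the 5 lowest means.

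The 28 loci without a given family had a median mean of -3.79 and included the 5 lowest of the set. Besides the 6 described above, AT1G30020 and AT1G75870 had means of -4.30 and -4.24, AT3G12685 and AT5G62750 both of -4.20, and AT1G13970 of -4.11. AT5G39870, AT1G52680, AT2G29790, AT3G21570, AT1G13670, AT5G50830, AT2G27670, AT4G08630, AT4G03620, AT3G32896, AT1G58120, AT5G48210, AT1G23610, AT1G43630 and AT2G37750 lay between -3.97 and -3.003. AT5G05720 and AT5G49260 were the highest, at -2.84 and -2.76. AT3G21570, AT1G13670, AT4G03620, AT1G23610 and AT2G37750 were among the 10 loci of the whole set with an SD under 0.30. AT1G28375, AT1G30020, AT5G50830 and AT5G48210 were among the 8 with an SD over 1.

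Around the threshold, members and non-members had similar means. Just inside, AT5G61620 was at -3.90, -2.76, -2.74 and -2.0002. AT4G13450 was at -2.55, -2.08, -2.05 and -2.12, close to the threshold on 3 arrays, and AT5G05720 was at -4.13, -2.42, -2.06 and -2.74. Array 3 or 4 gave the highest value in each. Just outside, AT3G53070 was at -1.99, -3.20, -3.20 and -3.61, AT1G19230 at -1.92, -3.73, -3.21 and -2.67, and AT5G08480 at -2.58, -2.42, -1.91 and -2.502. Each of these missed on 1 array only. The means of the 3 outside, -2.998, -2.88 and -2.35, overlapped those of the 3 inside, -2.85, -2.20 and -2.84.

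The arrays differed in how low they put the 70 loci. Array 4 gave the lowest of the 4 values for 36 loci (51.4%), array 1 for 17, array 2 for 10 and array 3 for 7. Over all 5386 genes, array 4 was lowest for 29.4%, and for the 16 genes with a symbol at the same threshold it was lowest for 8. Relative to each locus's own mean, the median deviation was -0.35 on array 4 and 0.32 on array 2. The median over the loci was -3.96 on array 4 and between -3.45 and -3.33 on the other arrays. With centred arrays, array 4 was the lowest for 36 of the 70 loci and for 1418 of the 5386 genes.

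Arrays 2 and 3 resembled each other most. Over the 70 loci their median absolute difference was 0.30. That of arrays 1 and 4, the pair that had been turned, was the widest at 0.96, and the remaining pairs of arrays lay between 0.59 and 0.76. The closest pair had a Pearson's r of 0.71 and a Spearman's rho of 0.71 (n = 70 loci), the most distant 0.28 and 0.31, and the remaining r were between 0.41 and 0.56. These are descriptions over loci that share the same arrays and whose range the threshold cut off. The order of the loci within the set thus depended on which array was read.

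The rule did not use probes that the annotation gives to several genes, and these offer another reading of some loci. Of the 70 loci, 26 were also listed on such a shared probe, 29 probes in all, each naming between 2 and 5 genes. A shared probe names none of its genes alone, so its ratio belongs to the group. The median over the 29 shared probes was 0.02, where the median of all probes was 0.14, and 24 of the 29 lay between -1 and 1. By limma over all 26156 probes, 4 of the 29 were lower at an adjusted p of 0.05 and 0 were higher, where 7.23% of all probes were lower. At an unadjusted p under 0.05, 8 of the 29 passed, 6 of them lower, where 30.6% of all probes passed in either direction.

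The 4 shared probes that fell belonged to 4 loci. For AT5G39870 a probe of the additional probe set, shared with AT3G28980, read -6.06, -4.92, -5.42 and -5.49, which was lower than the locus's own probe at -4.41, -3.02, -3.75 and -4.69 (limma adjusted p = 0.000964). A main-set probe with the same 2 genes read -0.15, 0.27, 0.05 and -0.03, so probes with identical listings disagreed by over 5 log2 units. For AT3G02480 the probe shared with AT5G53820 and AT5G38760 read -5.37, -3.82, -4.18 and -5.63, below its own probe on each array, though by less than 1 (limma adjusted p = 0.00326). The shared probes of AT5G64790 and AT1G30020 lay at -1.82 ± 0.36 and -1.39 ± 0.46 (SD, n = 4 each), less low than the own probes at -3.85 and -4.30, with limma adjusted p of 0.00558 and 0.0207. The probe shared by AT1G30020 was not called without array 2, 3 or 4, at limma adjusted p of 0.0932, 0.0897 and 0.0664.

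For most loci the own and the shared probe were far apart. The own probes had been chosen for low values and the shared probes had not, so a gap follows in part from the choice. AT5G16960 was at -4.48 on its own probe and at -0.39 on a probe shared with AT1G49670 and AT5G37980. AT3G51070 was at -4.41 and, shared with AT1G19430 and AT5G64030, at -0.32. The GH3 locus AT5G13380 was at -3.70 alone and at 0.56 on a probe that also lists AT5G13370, AT5G13360 and AT5G13350, and the pectin methylesterase AT4G15980 was at -3.55 alone and at 0.65 when shared. How much each listed gene gives to the signal of a shared probe was not tested.

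**Figure D3:**
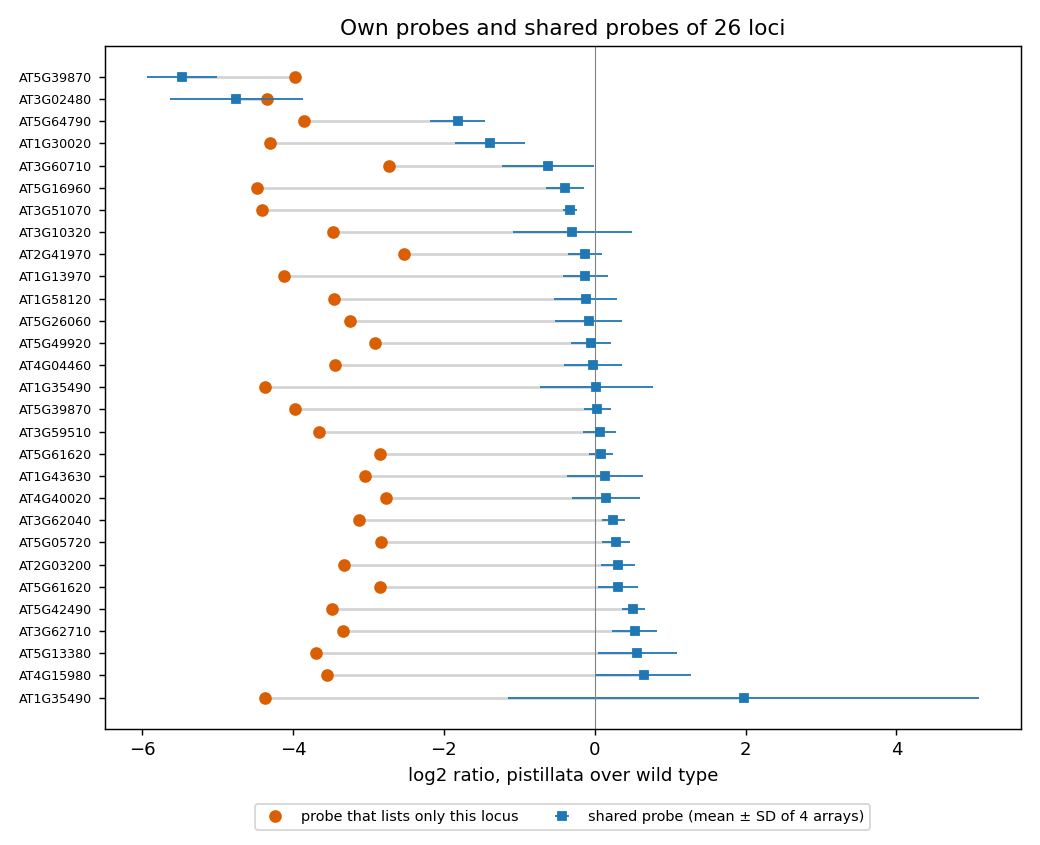
Mean log2 ratio of the own probe (circles) and of each shared probe (squares with bars of 1 SD, n = 4 arrays) for the 26 loci that appear on both, 1 row per shared probe, ordered by the shared probe. At the top, 2 shared probes lie at -5.47 and -4.75, and 24 of the 29 lie between -1 and 1. Every own probe is at -2.53 or lower, but own probes were chosen for low values and shared probes were not.

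Genes listed beside a member on those shared probes had a probe of their own in 7 cases. By limma over all genes, 2 of the 7 were lower and 0 higher, where 5.79% of all genes were lower. The 70 loci, all called lower, count in that share but not among the 7. AT5G13350, listed with the GH3 locus AT5G13380, was at -4.14, -2.24, -3.13 and -1.37, a mean of -2.72 ± 1.19 (SD, n = 4; limma adjusted p = 0.0363). AT4G24130, listed with AT1G30020, was at -0.67 ± 0.23 (SD, n = 4; limma adjusted p = 0.0436). Leaving out any 1 of the arrays took both below the threshold of significance, with limma adjusted p between 0.0503 and 0.131 for AT5G13350 and between 0.0997 and 0.148 for AT4G24130. AT3G24330, listed with the glycoside hydrolase AT5G64790, had a mean of -1.06 and was not called (limma adjusted p = 0.0949). The other 4 of the 7 had means between 0 and 0.56. One of these, AT5G56840, stood at the limits of the table on every array, with opposite signs after turning.

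Over all genes, limma called 312 lower and 148 higher at an adjusted p of 0.05, so 67.8% of called genes were lower. With arrays centred this share was 82.3%, and 79.5% with the spread equalised too. It was 57.2% without probes at the limits of the table, and 42.6% with a random block for consecutive arrays, where more genes were called higher than lower. Centring also changed the level: the median of all genes moved from 0.16 to 0.05. The 70 loci were all among the genes called lower, which their choice made likely, and nothing is read from it.

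The loci were spread over all chromosomes. Chromosomes 1 to 5 held 22, 7, 19, 6 and 16 of them, which is 1.82%, 0.993%, 1.81%, 0.845% and 1.38% of the tested genes without a symbol on each. No member lay next to another: the closest, the glycosyltransferase AT3G10320 and the S1-type AT3G10460, were 17 protein-coding genes apart in the gene table. The closest gene with a symbol at the same threshold was ATA27, an anther gene 7 genes from AT1G75870, and sks18 lay 8 genes from the same locus on the other side.

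Adjacent genes, unlike the 70 loci, were not chosen by their values, and their median was near that of all genes. Of the 140 positions directly beside the 70 loci, 25 held a gene with its own probe, next to 23 of the loci. The median of these 25 was 0.19, where that of all genes was 0.16, and 22 of them lay between -1 and 1. By limma over all genes, 2 of the 25 were lower and 0 higher, where 5.79% of all genes were lower. That share includes the 70 loci, all called lower, whereas the 25 adjacent genes include none of them. At an unadjusted p under 0.05 there were 3 lower and 6 higher, where 30.8% of all genes passed in either direction. Within 2 genes on each side, 3 of 54 were lower and 0 higher.

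Of the adjacent genes that fell, AT5G61610 stands beside the MYB-like AT5G61620 and was at -2.15, -1.38, -1.97 and -2.17, a mean of -1.92 ± 0.37 (SD, n = 4; limma adjusted p = 0.0056). AT3G61170 stands beside the GSK3-like kinase AT3G61160 and was at -2.58, -2.67, -1.32 and -1.01, a mean of -1.89 ± 0.85 (SD, n = 4; limma adjusted p = 0.0415). The former stayed called without any 1 array, whereas the latter had limma adjusted p between 0.0677 and 0.132 when arrays were left out in turn. AT1G15430, which lies 2 genes from AT1G15415, was at -0.66 ± 0.15 (SD, n = 4; limma adjusted p = 0.0293), and its adjusted p was between 0.0563 and 0.146 with an array left out. Beside the lowest loci, AT3G52610 was at 0.06 next to AT3G52620, and AT1G15410 and AT1G15420 were at 0.01 and 0.29 on either side of AT1G15415. AT3G26870, next to AT3G26860, was at -2.47, -1.27, 2.32 and -1.88 and was not called.

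**Figure D4:**
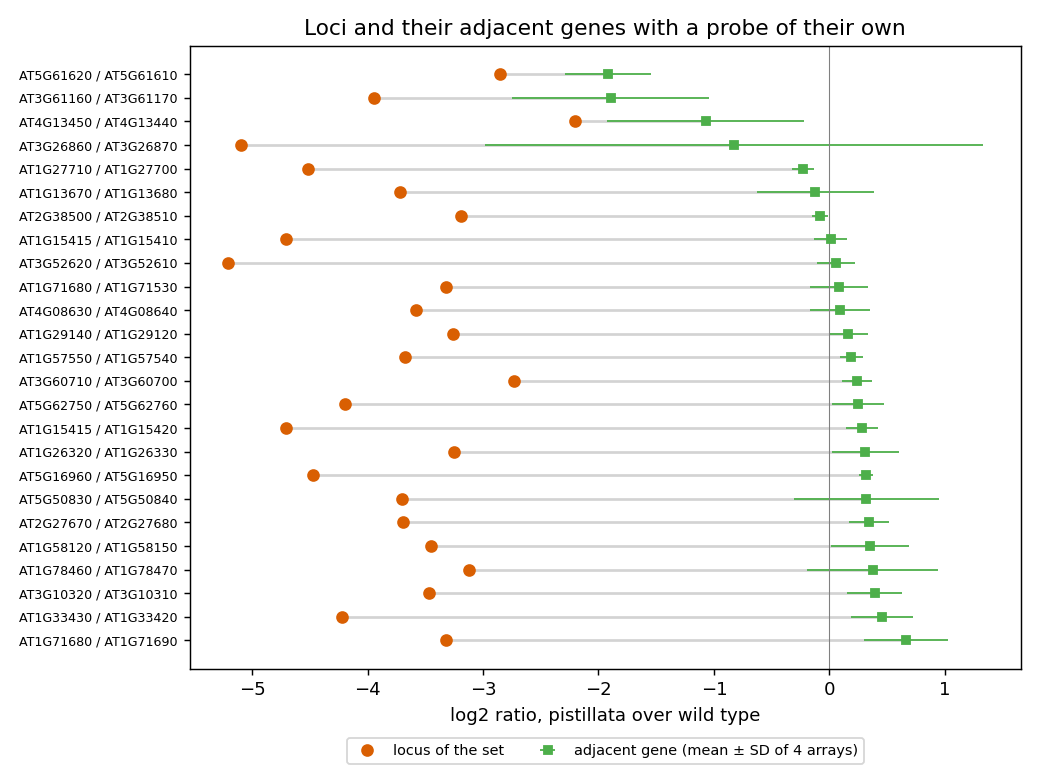
Mean log2 ratio of 23 loci (circles) and of the 25 genes directly beside them that have a probe of their own (squares with bars of 1 SD, n = 4 arrays), 1 row per adjacent gene, labelled locus / adjacent gene. The adjacent genes of AT5G61620 and AT3G61160 lie at -1.92 and -1.89, and 22 of the 25 lie between -1 and 1.

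Markers of the floral tissues were few on probes of their own. None of the 11 pollen markers sought had one (0 of 11), but 7 shared probes list 5 of these genes, VGD1, VGDH1, PPME1, ANX1 and ANX2. By limma 7 of 7 were lower, where 7.23% of all probes were lower, with means between -5.52 and -3.41. Some of these probes list more than 1 of the 5 genes, so they are not separate readings. The other pollen markers had neither kind of probe, and the list was chosen with earlier results of these data known. Tapetum markers other than the genes used for the direction had neither kind of probe (0 of 10), although A9 could not be matched by its symbol. SWEET9, the nectar-secreting transporter of nectaries, was at -4.88, and the other nectary marker, CRC, had neither kind of probe. INO, of the outer ovule integument, was at -0.20 and not called. The 3 shared probes that list a carpel or ovule marker, INO or SPT, were between 0.49 and 0.76, with 0 called. STK, SHP1, SHP2 and BEL1 had neither kind of probe. Of the genes listed as petal markers, TPS24 could not be matched by its symbol, which does not show that it lacked a probe. RBE had no probe, and the 2 shared probes that list UFO were at 0.28 and 0.65, with 0 called. The shared probes that list pollen genes were thus low on the arrays that chose the 70 loci. For petals the only gene read was UFO, on shared probes, and TPS24 was left unread for want of a match. These values therefore do not show whether petal genes were low. The part of pollen or petals in the low values of any locus was not tested.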

How the data were processed

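The 4 arrays compare pistillata with wild-type inflorescences in 2 channels and form 1 group. The authors deposited log2 ratios of the channels, normalized as in an earlier publication, per the labels, which do not give background correction, centring or numerator. The table stops at the log2 of 100 on either side of 0. Of 26933 rows, 424 empty and 35 control spots were set aside; 26156 of 26474 gene probes had 4 values. The platform annotation gives 5784 probes 1 gene, 7497 several and 13193 none. The gene table (assembly TAIR10.1) served for symbols and gene order and lacked 27 of the 5386 genes. All columns were used (0 left out).

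Arrays 1 and 4 were multiplied by -1 and the probes of a gene averaged. Genes, and separately probes, were fitted in limma (version 3.58.1; R version 4.3.3; lmFit and eBayes, two-sided, Benjamini-Hochberg, threshold 0.05), checked on simulated data; tables were handled in Python 3.11.15 with pandas 2.3.3. Members, lists and rules were chosen with earlier results of these data known; shared probes and the genes listed on them were added after the values were seen. Every member is named, with array values for the 10 lowest, the lowest of each class, those with several probes and those by the threshold; neighbours and listed genes are named where called. Array values of other loci, and genes named though not called, were picked after being seen. Relatives by protein comparison and sequence features were planned but not analysed here.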

Additional observations from a re-analysis of the deposited data

Results flagged for a closer look

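In 14 of 124 sets of 4 values, those of members, shared probes and adjacent genes, 1 array stood apart from the other arrays by a share of the set's range above Dixon's critical value; chance gives about 1 in 20. Members made up 10 of the 14; the values of members had been chosen, so that rate does not apply to them. Of all 5386 genes, 380 (7.06%) passed the same value. Array 4 was the low one at AT1G15415 (-5.60), AT1G33430 (-5.91), AT5G13380 (-5.11) and AT5G48210 (-5.35). Array 1 was the low one at AT1G75870 (-5.52), AT5G49260 (-3.84) and AT4G13450 (-2.55), and the high one at AT1G57550 (-3.10) and AT1G18960 (-2.11). Array 3 was low at AT5G64790 (-6.26). Among shared probes, that of AT5G16960 stood apart with -0.76 on array 1, one of the probes of AT5G61620 with 0.70 on array 3, and one of AT1G35490 with 6.644, the limit of the table, on array 3. The adjacent gene AT1G71690 stood apart with 0.12 on array 4.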

How the results depend on the processing

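The number of genes that met the rule was 73 with centred arrays, 69 without probes at the limits of the table, 70 with every probe at the threshold, and 103 and 56 at thresholds of -1.5 and -2.5; with 1 array left out it was 74 to 84, which by construction include the 70 members. The median of the members' means was -3.68 centred, -3.78 centred and scaled, -3.55 without the member at a limit, and -3.69 to -3.42 with 1 array left out. In the labels' channel order the rule found 0 genes, the median was -0.15, and limma called 0 genes (18 at an unadjusted p under 0.05), 0 adjacent genes, 0 listed genes and 0 shared probes; AT3G61170, AT5G13350, AT4G24130 and the shared probes of AT5G39870 and AT5G64790 were then at 0.732, 0.470, 0.140, 0.0170 and 0.0341. Genes called in all numbered 460; they were 726 without probes at a limit, 1047 with a random block for consecutive arrays, 311 with trended and robust moderation, 164 at an adjusted p of 0.01, and 180 to 235 with 1 array left out; the lower share of called genes, 67.8%, was then 57.2%, 42.6% and 100% under the first 3 of these settings. Adjacent genes called lower fell from 2 to 1, AT5G61610, whichever array was left out. Listed genes called lower, 2 of 7, were 3 of 6 without probes at a limit and 1 of 6 with genes of 1 probe only. Of 7 listed genes, 3 were called lower with the random block, 1 after centring and scaling and 1 with trended and robust moderation. With any 1 array left out the count was 0 (lowest 0, highest 0). Beyond fewer arrays, fewer genes or the stricter limit, the cause was not tested. No paired analysis was possible because the 4 arrays form 1 group. The comparison of relatives by blastp and its alternatives were not run, and no signal strengths show which ratios lie near background.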
